A study of Mus musculus with 14 samples.

Results

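The 9 genes described here code for CD73 and for proteins linked to making, sensing, taking up or breaking down extracellular adenosine: *Nt5e*, *Entpd1*, *Adora2a*, *Adora2b*, *Ada*, *Adk*, *Dpp4*, *Cd38* and *Slc29a1*. They were chosen by name around *Nt5e*, which was picked because it is among the largest falls in mutant cells. All 9 had a value in every sample, out of 30906 genes with one. The values of *Nt5e* are therefore a description and carry no test, and the other 8 genes were tested. *Nt5e* stood at 7.95 ± 1.12 FPKM (SD, n = 4) in WT CD4+ T cells and at 0.249 ± 0.0283 FPKM (SD, n = 4) in HDAC1cKO-HDAC2HET cells. In the same comparison *Adora2b*, *Dpp4* and *Slc29a1* fell and *Adora2a* and *Entpd1* rose, while *Ada*, *Adk* and *Cd38* did not pass the test.

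The study asked how the histone deacetylases HDAC1 and HDAC2, enzymes that remove acetyl groups from histones and other proteins, shape helper T cells. Naive CD4+ T cells were sorted from C57BL/6 mice, from spleen per the labels and from pooled spleen and lymph nodes per the study's methods, by a gate that leaves out CD25+ and CD44-high cells, and RNA-Seq was run on 14 libraries in 2 experiments. In the first, 4 WT and 4 HDAC1cKO-HDAC2HET (HDAC1f/f HDAC2f/+ x CD4cre) samples were cultured for 3 days on plate-bound antibodies to CD3 and CD28, with human IL-2 and without polarizing cytokines. In the second, 3 WT and 3 HDAC1cKO (HDAC1f/f x CD4cre) samples had the same 3 days and were then restimulated with anti-CD3 for 12 hours. The Cd4-driven Cre acts in all T cells that have passed through the CD4+CD8+ stage of the thymus, so the genes were lost before the cells were activated. HDAC1cKO-HDAC2HET cells lack both *Hdac1* alleles and keep 1 of the *Hdac2* alleles, while HDAC1cKO cells lack both *Hdac1* alleles and keep *Hdac2* whole. Each mutant was compared with the WT samples of its own experiment, because genotype, restimulation and experiment differ together between the experiments. The study calls the 4 cell batches per genotype of the first experiment independent and says that they were prepared on 1 day, while the origin of the replicates of the second is not given in the sources used here. P-values measure the spread between these samples, and cell numbers and RNA per cell cannot be told apart in bulk RNA.

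Values are FPKM, the read fragments of a gene scaled to its transcript length and to the depth of the library. Depth, estimated from the confidence bounds in the files, ran from about 20900000 fragments in HDAC1cKO-HDAC2HET replicate 3 to about 50000000 in replicate 4, and from 24300000 to 40100000 in the second experiment. *Hdac1* ran from 76.3 to 79.6 FPKM in WT and from 6.65 to 10.7 FPKM in HDAC1cKO-HDAC2HET cells, and from 72.3 to 81.1 against 8.52 to 12.1 FPKM in the second experiment. *Hdac2* ran from 58.2 to 60.3 against 34.0 to 37.0 FPKM in the first experiment, and its groups overlapped in the second. The RNA of *Xist* was at 26.0 FPKM or more in all 8 samples of the first experiment. In the second it was at 42.9 and 33.2 FPKM in WT replicates 1 and 3 and at or below 0.0435 FPKM in the other 4 samples, so sex was not balanced between the genotypes there. WT replicate 3 also held 1.93 FPKM of the Y-linked *Ddx3y*, against 17.0 FPKM or more in the 3 HDAC1cKO samples. The 7 CD4 T cell markers summed to 1685 FPKM or more in every library, and the myeloid marker *Lyz2* and the NK marker *Ncr1* were at or below 0.0155 FPKM everywhere. The myeloid marker *Itgam* reached 0.333 FPKM and the B cell marker *Cd79a* 0.772 FPKM. Summed over the markers of other cells, 10 of 12 with a value, levels ran from 22.3 to 25.7 FPKM in WT and from 20.9 to 22.9 FPKM in HDAC1cKO-HDAC2HET samples. Within this sum *Cd8b1* rose from a range of 3.24 to 5.87 FPKM to 11.4 to 14.8 FPKM. *Pecam1* fell from 15.8 to 21.8 FPKM to 6.79 to 9.09 FPKM.

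Adenosine outside cells is made in steps. CD39, the product of *Entpd1*, removes phosphates from ATP and ADP to give AMP, and CD73, the product of *Nt5e*, turns AMP into adenosine. On T cells adenosine acts through the A2 receptors, which raise cyclic AMP and restrain activation, and it is cleared by uptake through transporters such as ENT1 and by the enzymes adenosine deaminase and adenosine kinase. CD73 is known in mouse CD4+ T cells as a surface protein of regulatory and anergic cells.

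The stretch before the start of transcription is shown for 3 genes that moved in HDAC1cKO-HDAC2HET cells and have a window outside annotated exons, to set their promoters side by side. The sequences are the 250 bases before the RefSeq start in GRCm38.p6, read 5′ to 3′ on the gene's strand, at chr11:62248734-62248983 (plus) for *Adora2b*, chr2:62412232-62412481 (minus) for *Dpp4* and chr19:40612116-40612365 (plus) for *Entpd1*. Capitals mark matches to any of the motifs searched.
Adora2b: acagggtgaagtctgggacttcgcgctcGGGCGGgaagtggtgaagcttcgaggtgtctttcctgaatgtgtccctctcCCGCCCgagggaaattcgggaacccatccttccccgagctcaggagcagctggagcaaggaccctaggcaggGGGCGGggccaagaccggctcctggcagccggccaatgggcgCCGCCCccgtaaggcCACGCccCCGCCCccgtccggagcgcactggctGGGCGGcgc
Dpp4: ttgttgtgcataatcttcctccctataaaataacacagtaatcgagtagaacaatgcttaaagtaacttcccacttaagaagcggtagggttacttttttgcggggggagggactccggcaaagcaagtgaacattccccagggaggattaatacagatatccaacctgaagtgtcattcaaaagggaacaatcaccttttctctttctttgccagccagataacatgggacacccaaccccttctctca
Entpd1: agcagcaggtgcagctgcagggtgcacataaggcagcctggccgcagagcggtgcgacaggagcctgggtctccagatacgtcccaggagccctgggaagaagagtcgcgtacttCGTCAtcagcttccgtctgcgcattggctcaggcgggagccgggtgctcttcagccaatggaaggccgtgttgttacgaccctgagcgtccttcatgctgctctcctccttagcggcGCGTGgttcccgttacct

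Of *Nt5e*, the 30 bases before the RefSeq start at chr9:88327579-88327608 (plus) are given, since its whole window lies inside an exon of the longer annotated transcript.
Nt5e: ctgtccCCGCCCCGCCCtcctctactccgc

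The motifs searched on both strands were GGGCGG (Sp1 box), TGACG (cyclic AMP response core), TGACTCA (AP-1), TGTGGT (RUNX core), TTCNNNGAA (STAT), ACGTG (hypoxia response core) and GCGTG (xenobiotic response core), with overlapping matches counted apart. GGGCGG was found in 32.7% of the 32851 mouse promoter windows of this length. The *Adora2b* window held 6 such boxes and the *Nt5e* window 4, of which a pair lies in the stretch shown. The *Dpp4* window matched none of the 7 motifs and had a GC content of 43.6%, against 69.6% for *Adora2b*, 72.0% for *Nt5e* and a median of 52.4% over all windows. The first *Entpd1* window held 1 match to TGACG, present in 17.8% of windows, and 1 match to GCGTG, present in 28.2%. These are matches of letters and not measured binding. Of the members that fell in HDAC1cKO-HDAC2HET cells, *Adora2b* and *Nt5e* thus had GC-rich windows and *Dpp4* a GC-poor one. *Slc29a1*, which also fell, had several windows, with a GC content of 51.2% to 73.2%. The GC content of all genes that fell was not examined.

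*Nt5e* lies on chromosome 9 from 88327197 to 88372092 (plus strand, mm10). In the first experiment the 4 WT samples had 6.35, 8.17, 8.92 and 8.36 FPKM, and the 4 HDAC1cKO-HDAC2HET samples had 0.272, 0.222, 0.274 and 0.227 FPKM. Every HDAC1cKO-HDAC2HET sample was far below every WT sample, and the mean in WT was 31.9 times the mean in HDAC1cKO-HDAC2HET cells. The confidence bounds imply 1252 to 1496 fragments of *Nt5e* in each WT library and 25 to 49 in each HDAC1cKO-HDAC2HET library, so the remaining signal was low but not 0. As a log2 fold change, taken on log2(FPKM + 0.1), the difference came to -4.52 with a standard error of 0.12 (n = 4 and 4). The added 0.1 FPKM shrinks this value, which was -2.83 with 1 FPKM added and -4.94 with 0.01 FPKM added. Among the 11054 protein-coding genes tested it was the 4th largest fall.

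After restimulation *Nt5e* had 8.47, 12.5 and 8.54 FPKM in the WT samples and 1.45, 2.83 and 2.81 FPKM in the HDAC1cKO samples. The groups did not overlap, and WT was 4.17 times HDAC1cKO in the mean. The log2 fold change was -2.05 (standard error 0.31, n = 3 and 3), the 17th largest fall of 11165 protein-coding genes tested. WT replicate 2, the WT sample with *Xist* near 0, had the highest value of the 3. The log2 fold change was -2.42 with *Xist* as a covariate. In that fit WT replicate 2 alone stood for WT, because the HDAC1cKO samples also had *Xist* near 0. In order of level, HDAC1cKO-HDAC2HET samples were lowest, then HDAC1cKO samples, then the WT samples of both experiments. The neighbours in that order were apart except the WT groups, whose ranges of 6.35 to 8.92 and 8.47 to 12.5 FPKM overlapped. The plot of FPKM by library shows the same order. The *Nt5e* locus started at 88327197 in the first experiment and at 88327609 in the second, so levels across the experiments rest on unlike spans.

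**Figure D1:**
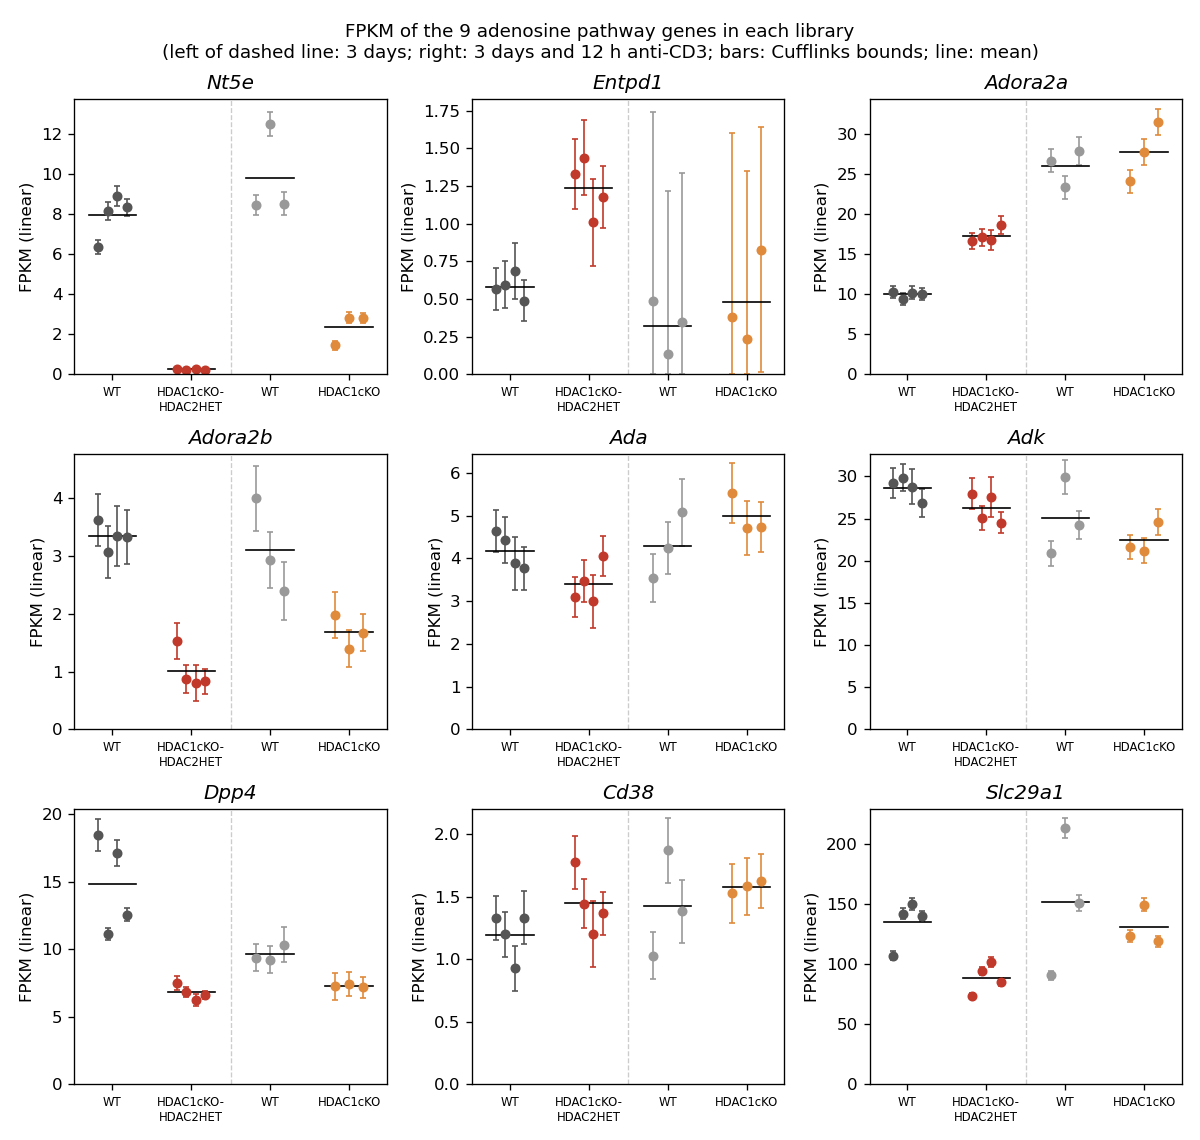
FPKM of the 9 genes (linear axes from 0) in each library, with points for samples, black lines for group means and vertical bars for the Cufflinks confidence bounds; the dashed line parts the 3-day experiment (left) from the restimulated one (right). HDAC1cKO-HDAC2HET samples hold 0.222 to 0.274 FPKM of *Nt5e* against 6.35 to 8.92 FPKM in WT, and the bounds of *Entpd1* in the second experiment reach 0 in 5 of 6 libraries.

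Of the 8 genes other than *Nt5e*, 2 rose and 3 fell in HDAC1cKO-HDAC2HET cells at a limma adjusted p of at most 0.05 over all 15105 genes tested, and 3 were not called. Of all genes, 24.2% were called higher and 27.6% lower, so 5 calls among 8 is close to the share of all genes. At a fold change of at least 2 as well, 2 of the 8 were lower and none was higher, where 5.55% of all genes were lower and 5.6% higher. The median log2 fold change of the 8 genes was -0.21, beside -0.045 over all genes.

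*Entpd1*, on chromosome 19 from 40612366 to 40741602 (plus strand), codes for the enzyme ahead of CD73 and moved the other way. WT samples had 0.564, 0.595, 0.684 and 0.490 FPKM, and HDAC1cKO-HDAC2HET samples had 1.33, 1.44, 1.01 and 1.18 FPKM. All 4 mutant samples were above all WT samples, and the gene rose by 0.97 on the log2 scale (standard error 0.14, limma adjusted p = 0.000699). Levels were low, with 51 to 65 fragments implied in WT and 48 to 132 in HDAC1cKO-HDAC2HET libraries. With 1 FPKM added the log2 fold change was 0.50. Since *Nt5e* and *Entpd1* moved apart, the ratio of their FPKM levels within a sample went from 11.2 to 17.1 in WT down to 0.154 to 0.272 in HDAC1cKO-HDAC2HET samples. After restimulation *Entpd1* had 0.487, 0.134 and 0.351 FPKM in WT and 0.378, 0.233 and 0.828 FPKM in HDAC1cKO samples. These ranges overlapped (log2 fold change 0.42, 95% interval -0.86 to 1.70). The bounds around them were wide, although the 6 libraries were about as deep as those of the first experiment. Read as counting error alone, they would imply at most 4 fragments in any of the 6. WT replicate 1 had 0.487 FPKM with 1 fragment implied, beside 0.490 FPKM with 51 in WT replicate 4 of the first experiment. The implied numbers are therefore not fragment counts here, and the cause of the wide bounds was not tested. *Entpd1* was seen only as an unnamed assembled locus, whose span also holds 3 other annotated genes on the same strand.

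The 2 adenosine receptors moved in opposite directions in HDAC1cKO-HDAC2HET cells. *Adora2a*, an adenosine A2 receptor (chromosome 10 from 75316877 to 75334784, plus strand), had 10.3, 9.37, 10.2 and 10.005 FPKM in WT and 16.6, 17.1, 16.8 and 18.6 FPKM in HDAC1cKO-HDAC2HET samples. The groups were far apart and tight, and the gene rose by 0.79 on the log2 scale (standard error 0.05, limma adjusted p = 1.05e-05). *Adora2b*, the other A2 receptor (chromosome 11 from 62248984 to 62266453, plus strand), had 3.63, 3.08, 3.35 and 3.33 FPKM in WT and 1.53, 0.871, 0.806 and 0.836 FPKM in HDAC1cKO-HDAC2HET samples. It fell by 1.68 on the log2 scale (standard error 0.19, limma adjusted p = 0.000195), and HDAC1cKO-HDAC2HET replicate 1 lay above the other 3. *Adora2a* was the higher receptor in every library. Its level was 2.83 to 3.05 times that of *Adora2b* in WT and 10.9 to 22.3 times in HDAC1cKO-HDAC2HET samples, on the FPKM scale. Of the remaining receptors, *Adora1* was listed at 0 in every library and *Adora3* had no matched locus.

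After restimulation *Adora2a* had 26.7, 23.4 and 27.8 FPKM in WT and 24.1, 27.7 and 31.5 FPKM in HDAC1cKO samples. The ranges overlapped (log2 fold change 0.09, 95% interval -0.21 to 0.40), and both groups lay above every sample of the first experiment. *Adora2b* had 4.00, 2.93 and 2.39 FPKM in WT and 1.99, 1.40 and 1.67 FPKM in HDAC1cKO samples. The HDAC1cKO samples were all lower, at a log2 fold change of -0.83 (95% interval -1.41 to -0.24) that did not pass after adjustment (limma adjusted p = 0.242). The exact permutation p for *Adora2b* was 0.1, the smallest that 3 samples against 3 allow. The ratio of *Adora2a* to *Adora2b* was 6.67 to 11.6 in WT and 12.1 to 19.9 in HDAC1cKO samples.

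*Slc29a1* codes for ENT1, a transporter that carries adenosine across the membrane in both directions, and lies on chromosome 17 from 45585200 to 45599606 (minus strand). It was the most abundant of the 9 genes. WT samples had 107, 142, 150 and 140 FPKM and HDAC1cKO-HDAC2HET samples had 73.7, 94.4, 102 and 85.4 FPKM, with no overlap. The fall was 0.60 on the log2 scale (standard error 0.13, limma adjusted p = 0.00629). The bounds imply 2583 fragments in HDAC1cKO-HDAC2HET replicate 3, of about 20900000, and 3092 in WT replicate 1, of about 48800000. Set against depth, implied fragments thus did not part the groups as FPKM did. The WT samples of the second experiment spread from 90.9 to 213 FPKM, which took in all HDAC1cKO samples at 119 to 150 FPKM. Implied fragments in WT replicates 1 to 3 were 2422, 2755 and 2048, a narrower spread than that of FPKM. The log2 fold change there was -0.14 (95% interval -0.89 to 0.61), and it was 0.15 without WT replicate 2.

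The 2 enzymes that remove adenosine showed no called change. *Ada*, adenosine deaminase (chromosome 2 from 163726584 to 163750239, minus strand), had 4.63, 4.43, 3.89 and 3.76 FPKM in WT and 3.09, 3.46, 2.99 and 4.05 FPKM in HDAC1cKO-HDAC2HET samples. The groups overlapped through HDAC1cKO-HDAC2HET replicate 4 (log2 fold change -0.30, limma adjusted p = 0.0616), and without that sample the value was -0.38 (limma adjusted p = 0.0172). After restimulation *Ada* ran from 3.55 to 5.08 FPKM in WT and from 4.71 to 5.53 FPKM in HDAC1cKO samples (log2 fold change 0.23, 95% interval -0.18 to 0.63). *Adk*, adenosine kinase (chromosome 14 from 21052574 to 21448569, plus strand), ran from 26.8 to 29.9 FPKM in WT and from 24.5 to 28.0 FPKM in HDAC1cKO-HDAC2HET samples (log2 fold change -0.13, 95% interval -0.26 to 0.004, limma adjusted p = 0.0962), and was called lower with sample quality weights (-0.15, limma adjusted p = 0.0491). Its second-experiment ranges were 20.9 to 29.97 FPKM in WT and 21.2 to 24.6 FPKM in HDAC1cKO samples, at a log2 fold change of -0.14. With *Xist* as a covariate, where WT replicate 2 alone stood for WT, the log2 fold change was -0.42.

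*Dpp4* codes for CD26, a surface peptidase that in humans also binds adenosine deaminase, and lies on chromosome 2 from 62330073 to 62412231 (minus strand). WT samples had 18.5, 11.1, 17.1 and 12.6 FPKM and HDAC1cKO-HDAC2HET samples had 7.48, 6.85, 6.26 and 6.62 FPKM. The groups did not overlap, and *Dpp4* fell by 1.08 on the log2 scale (standard error 0.16, limma adjusted p = 0.000888). The files gave the gene in 2 kinds of row. WT replicate 2 was the only WT sample with the gene listed by name, at 11.1 FPKM, and HDAC1cKO-HDAC2HET replicates 3 and 4 were listed by name at 6.26 and 6.62 FPKM. Where the gene was an unnamed assembled locus, WT had 12.6 to 18.5 FPKM and HDAC1cKO-HDAC2HET had 6.85 to 7.48 FPKM. The direction was therefore the same within each kind of row, but the kind of row did not track the spread within WT. The bounds imply 978 and 1260 fragments in WT replicates 1 and 3, at 18.5 and 17.1 FPKM. They imply 2463 and 2816 fragments in WT replicates 2 and 4, at 11.1 and 12.6 FPKM. The higher WT values thus came with fewer implied fragments, and the cause was not tested. All samples of the second experiment gave *Dpp4* as an assembled locus, with 9.38, 9.21 and 10.3 FPKM in WT and 7.25, 7.43 and 7.18 FPKM in HDAC1cKO samples. The HDAC1cKO samples were tight and below WT (log2 fold change -0.40, 95% interval -0.62 to -0.18), but the difference did not pass after adjustment (limma adjusted p = 0.192). The antisense gene *Gm13561* overlaps *Dpp4*, as other genes overlap *Adk*, *Cd38* and *Slc29a1*, and it is not stated whether fragments were assigned by strand, so their reads could not be told apart.

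*Cd38*, which codes for a surface enzyme that consumes NAD and feeds an alternative route to AMP, lies on chromosome 5 from 43868553 to 43912375 (plus strand). It had 1.33, 1.20, 0.926 and 1.33 FPKM in WT and 1.77, 1.44, 1.20 and 1.37 FPKM in HDAC1cKO-HDAC2HET samples. The ranges overlapped (log2 fold change 0.25, limma adjusted p = 0.213). After restimulation it ran from 1.03 to 1.87 FPKM in WT and from 1.53 to 1.62 FPKM in HDAC1cKO samples, inside the WT range.

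None of the 8 genes was called in HDAC1cKO cells by limma, where 0.0144% of 13912 genes were called higher and 0.0575% lower, and 0.00719% and 0.0575% with a 2-fold change as well. At an unadjusted p under 0.05 the count was 2, *Dpp4* and *Adora2b*, both lower, where 14.4% of all genes were under it in either direction. In a single limma fit over all 14 samples 1 of the 8 genes, *Adora2b*, was called (log2 fold change -0.83, adjusted p = 0.0446), where 10.4% of all genes were. The plot of fold changes shows both experiments side by side.

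**Figure D2:**
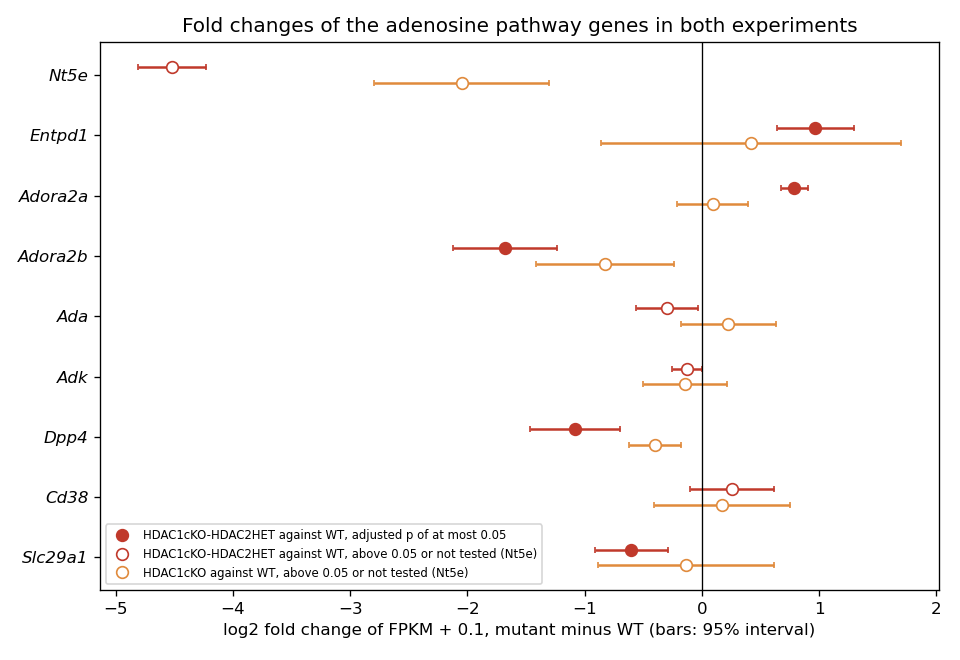
Log2 fold changes (mutant minus WT, on log2(FPKM + 0.1)) of the 9 genes in both experiments, with 95% intervals as bars; filled points have a limma adjusted p of at most 0.05 and open points do not or, for *Nt5e*, were not tested. The 5 filled points are all from HDAC1cKO-HDAC2HET cells, and *Nt5e* stands farthest left in both experiments, at -4.52 and -2.05.

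Whether a fold change differed between the experiments was tested as its own contrast over all 14 samples. Of the 8 genes, 2 passed at a limma adjusted p of at most 0.05, where 15.7% of 12350 genes did. *Adora2a* had log2 fold changes of 0.79 and 0.09, which are 0.69 apart (standard error 0.12, limma adjusted p = 0.00318). *Dpp4* had -1.08 and -0.40, apart by -0.69 (standard error 0.21, limma adjusted p = 0.0444), and this did not pass under 16 of 26 alternatives. *Adora2b*, at -1.68 and -0.83, had a difference of -0.85 (95% interval -1.52 to -0.17, limma adjusted p = 0.0853). The WT levels of *Adora2a* and *Dpp4* also differed between the experiments, at 9.97 and 26.0 FPKM for *Adora2a* and 14.8 and 9.64 FPKM for *Dpp4* in the mean. Genotype and restimulation cannot be told apart in this contrast.

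The wider list held 95 other genes of purine handling and of cyclic AMP signalling, of which 60 could be tested in the first experiment. In HDAC1cKO-HDAC2HET cells 13 rose, 27 fell and 20 were not called by limma, or 21.7% and 45% beside 24.2% and 27.6% of all genes. With a 2-fold change as well, 5 were higher and 9 lower of the 60, where 5.6% of all genes were higher and 5.55% lower. The median log2 fold change was -0.19, beside -0.045 over all genes. Of 9 tested genes of ATP release and P2 receptors 5 fell and none rose, of 8 salvage enzymes 5 fell and 1 rose, of 22 genes of cyclic AMP signalling 10 fell and 7 rose, and of 8 intracellular nucleotidases and lumenal NTPDases 3 fell and 1 rose. Of 5 genes of extracellular nucleotide breakdown 1 rose and 1 fell, of 3 nucleoside transporters 1 rose and 1 fell, and of 5 factors known to control *Nt5e* or *Entpd1* 2 rose and 2 fell.

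*P2rx7*, the ATP-gated channel that senses the substrate of CD39, had the largest fall on this list. WT samples had 2.71, 3.23, 2.85 and 2.41 FPKM and HDAC1cKO-HDAC2HET samples had 0.436, 0.357, 0.612 and 0.436 FPKM, with no overlap (log2 fold change -2.38, limma adjusted p = 1.25e-05). In the second experiment its ranges were 2.41 to 3.85 FPKM in WT and 1.21 to 1.85 FPKM in HDAC1cKO samples. *Enpp1*, a surface enzyme that splits ATP to AMP, rose from 0.988 to 1.26 FPKM in WT to 2.62 to 3.54 FPKM in HDAC1cKO-HDAC2HET samples (log2 fold change 1.38, limma adjusted p = 4.86e-05). Its second-experiment ranges of 0.454 to 0.928 and 0.432 to 0.745 FPKM overlapped. Among transporters, *Slc29a3*, the lysosomal ENT3, fell from a range of 13.9 to 18.6 FPKM to 6.54 to 7.22 FPKM (log2 fold change -1.23), and *Slc29a4*, the monoamine and adenosine carrier, rose to 0.330 to 0.695 FPKM (log2 fold change 1.16).

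The called genes downstream of the receptors moved both ways. *Adcy6*, an adenylyl cyclase that makes cyclic AMP, had 4.87, 2.80, 5.98 and 3.01 FPKM in WT and 17.4, 18.7, 18.7 and 19.0 FPKM in HDAC1cKO-HDAC2HET samples. Its log2 fold change was 2.19 (limma adjusted p = 0.000143). Second-experiment samples were at 6.12 to 9.31 FPKM in WT and 19.1 to 27.0 FPKM in HDAC1cKO samples, without overlap, but the log2 fold change of 1.46 did not pass after adjustment (limma adjusted p = 0.117). *Pde4a*, a phosphodiesterase that breaks cyclic AMP down, rose by 1.73 on the log2 scale and *Pde8a*, another, fell by 1.20. Of 4 regulatory subunits of protein kinase A, the enzyme that cyclic AMP switches on, 3 fell, *Prkar1b* by 1.80, *Prkar2a* by 1.11 and *Prkar2b* by 1.02 on the log2 scale (limma adjusted p at most 0.000162), and *Prkar1a*, at -0.03, was not called. *Prkar2b* had 2.40 to 3.65 FPKM in WT and 1.43 to 1.51 FPKM in HDAC1cKO samples in the second experiment.

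Of the factors known to act on *Nt5e* or *Entpd1*, *Gfi1*, a transcriptional repressor, had 24.4, 19.9, 22.4 and 21.4 FPKM in WT and 66.7, 74.0, 79.2 and 75.8 FPKM in HDAC1cKO-HDAC2HET samples. It rose by 1.74 on the log2 scale (standard error 0.07, limma adjusted p = 2.22e-06). In the second experiment its ranges were 26.5 to 38.1 and 42.5 to 51.7 FPKM, apart but not called (limma adjusted p = 0.212). *Ahr*, the aryl hydrocarbon receptor, fell from 0.378 to 0.562 FPKM to 0.0945 to 0.188 FPKM (log2 fold change -1.16, limma adjusted p = 0.0017). It was higher in the second experiment, at 1.75 to 4.56 FPKM in WT and 0.616 to 0.861 FPKM in HDAC1cKO samples. *Stat3* rose from 54.6 to 58.9 FPKM in WT to 104 to 117 FPKM in HDAC1cKO-HDAC2HET samples (log2 fold change 0.95, limma adjusted p = 3.14e-06). *Sp1* fell from 24.1 to 25.7 FPKM to 16.1 to 18.1 FPKM (log2 fold change -0.57, limma adjusted p = 2.32e-05). *Hif1a* was not called there (log2 fold change 0.05). In HDAC1cKO cells none of 61 tested genes of the wider list was called by limma. At an unadjusted p under 0.05 there were 14, of which 4 were higher and 10 lower, beside 14.4% of all genes. In the single fit over all 14 samples 14 were called, beside 10.4% of all genes.

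**Figure D3:**
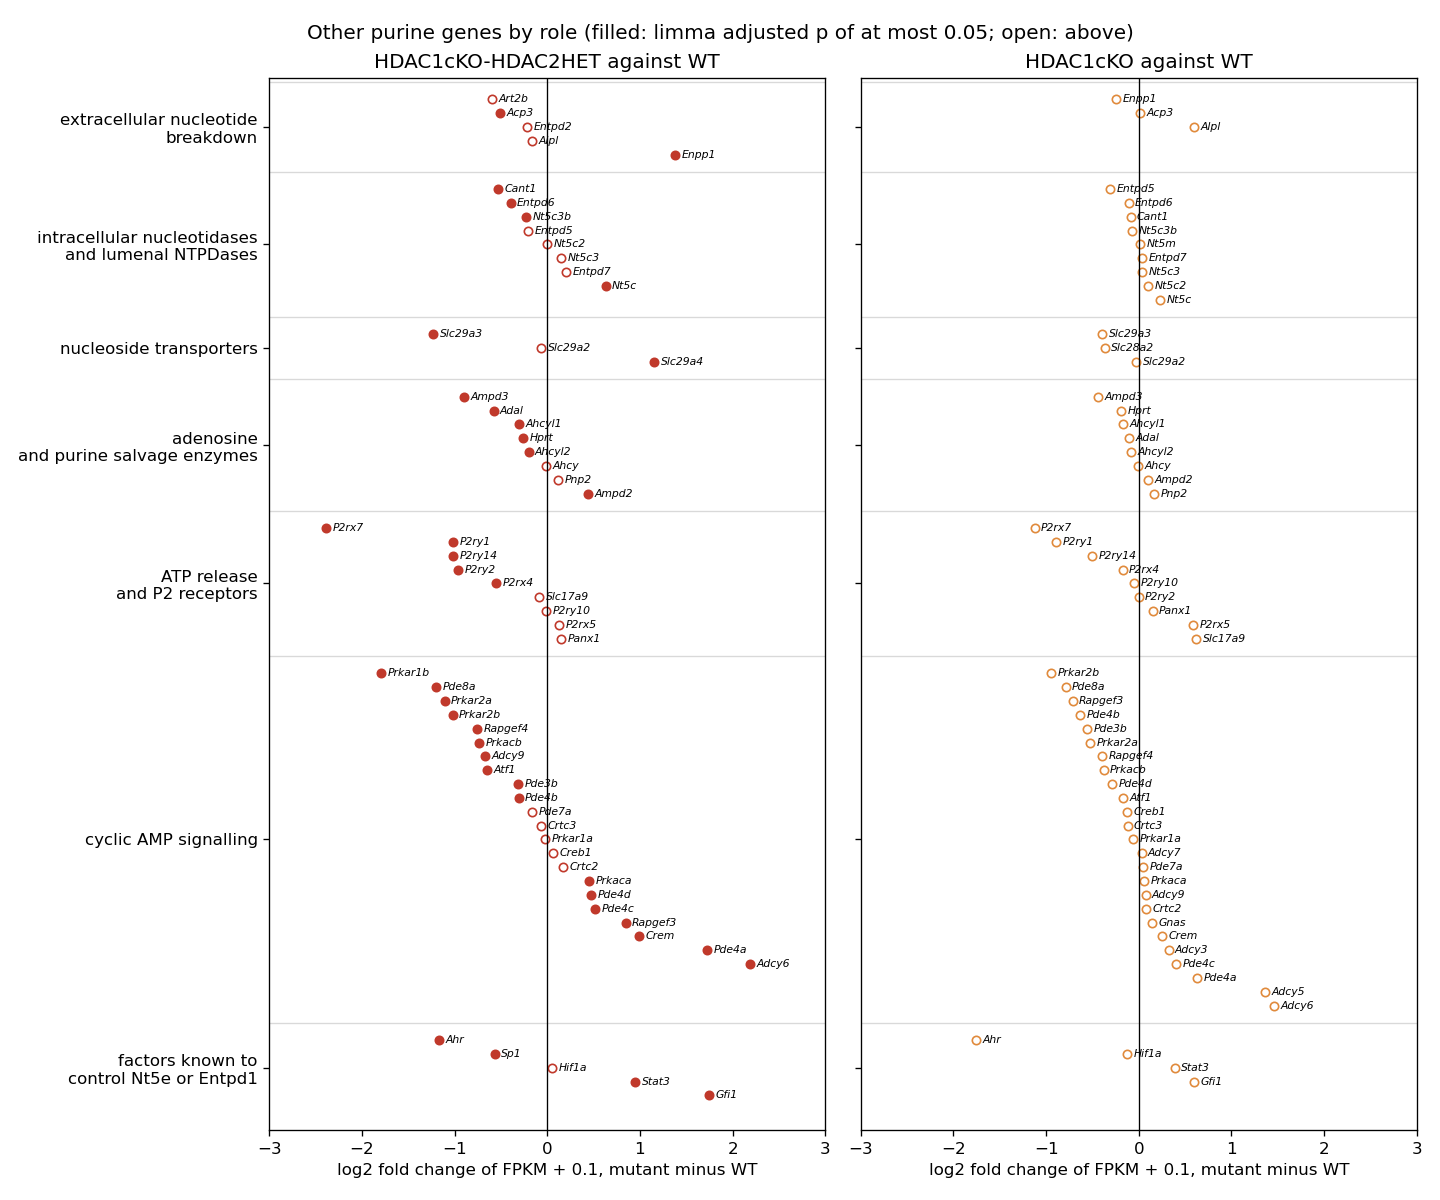
Log2 fold changes (mutant minus WT, on log2(FPKM + 0.1)) of the other purine genes grouped by role, in HDAC1cKO-HDAC2HET cells (left) and HDAC1cKO cells (right); each point is a gene, filled where the limma adjusted p is at most 0.05. On the left 27 of 60 genes are filled and lower and 13 filled and higher, with *P2rx7* at -2.38 and *Adcy6* at 2.19 farthest out, and on the right none of 61 is filled.

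CD73 is carried on regulatory and anergic T cells, and the levels of other genes used as markers of these cells are given beside it. All 5 markers with a value were called lower in HDAC1cKO-HDAC2HET cells, where 27.6% of all genes were. Their summed level ran from 650 to 735 FPKM in WT and from 354 to 403 FPKM in HDAC1cKO-HDAC2HET samples. *Izumo1r*, the folate receptor 4 of anergic cells, ran from 206 to 237 FPKM in WT and from 46.9 to 61.8 FPKM in HDAC1cKO-HDAC2HET samples. *Nrp1* ran from 15.7 to 35.8 against 2.70 to 3.80 FPKM and *Ikzf2* from 0.567 to 0.948 against 0.140 to 0.308 FPKM. The falls of the other markers were smaller, with *Il2ra* from 300 to 355 against 209 to 237 FPKM and *Ctla4* from 119 to 142 against 75.6 to 113 FPKM. The summed level of the second experiment ran from 417 to 540 FPKM in WT and from 283 to 348 FPKM in HDAC1cKO samples. There 1 of 5 markers, *Ctla4*, was called lower and 4 were not called, where 0.0575% of all genes were called lower. *Foxp3* had no matched locus. The 7 CD4 T cell markers also fell in HDAC1cKO-HDAC2HET cells, with a median log2 fold change of -0.38. The sort of CD25-negative cells before culture would remove CD25+ regulatory cells, and the part of any such cells in the level of *Nt5e* was not tested.

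To see which genes share its pattern, 8734 protein-coding genes with a mean of at least 1 FPKM in both experiments were ranked by the Pearson correlation of log2(FPKM + 0.1) with *Nt5e* over 14 samples, after the mean of each experiment was removed. The samples fall into groups by genotype, so this orders genes by the difference between WT and mutant cells and is a description. The 5 genes most alike were *B4galnt4*, a glycosyltransferase, at r = 0.992, *Ryk*, a Wnt receptor, at 0.991, *Egr4*, a zinc finger factor, at 0.990, *Tespa1*, a protein of T cell receptor signalling, at 0.990, and *St8sia6*, a sialyltransferase, at 0.989. *Tespa1* ran from 15.9 to 19.4 FPKM in WT and from 1.74 to 2.85 FPKM in HDAC1cKO-HDAC2HET samples, and from 13.4 to 20.7 against 5.64 to 6.32 FPKM in the second experiment. *Ryk* ran from 7.50 to 9.25 against 0.650 to 0.911 FPKM, and from 7.86 to 9.81 against 3.10 to 4.68 FPKM. As with *Nt5e*, the HDAC1cKO samples of both genes lay between those of WT and HDAC1cKO-HDAC2HET. Both were picked for their likeness to *Nt5e*, so a smaller fall in HDAC1cKO cells follows from the choice. The experiments compared also differ in restimulation.

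The 5 genes most opposite to *Nt5e* were *C2cd2l* at r = -0.993, *Prf1* at -0.989, *Vat1* at -0.989, the kinase *Mark4* at -0.987 and *Ptgir* at -0.987. *Prf1*, the pore-forming protein of cytotoxic cells, ran from 0.240 to 0.367 FPKM in WT and from 16.9 to 21.4 FPKM in HDAC1cKO-HDAC2HET samples, and from 0.203 to 0.352 against 1.48 to 2.68 FPKM in the second experiment. *Ptgir*, the prostacyclin receptor, raises cyclic AMP as the adenosine A2 receptors do, and ran from 2.45 to 2.98 FPKM in WT and from 7.96 to 8.79 FPKM in HDAC1cKO-HDAC2HET samples. Among the pathway genes ranked, *Adora2b* had r = 0.918 and was the 537th most alike of 8734, *Dpp4* had 0.906 and was the 666th, *Adora2a* had -0.897, and the other 4 lay between -0.425 and 0.677. *Entpd1* was too low to be ranked.

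**Figure D4:**
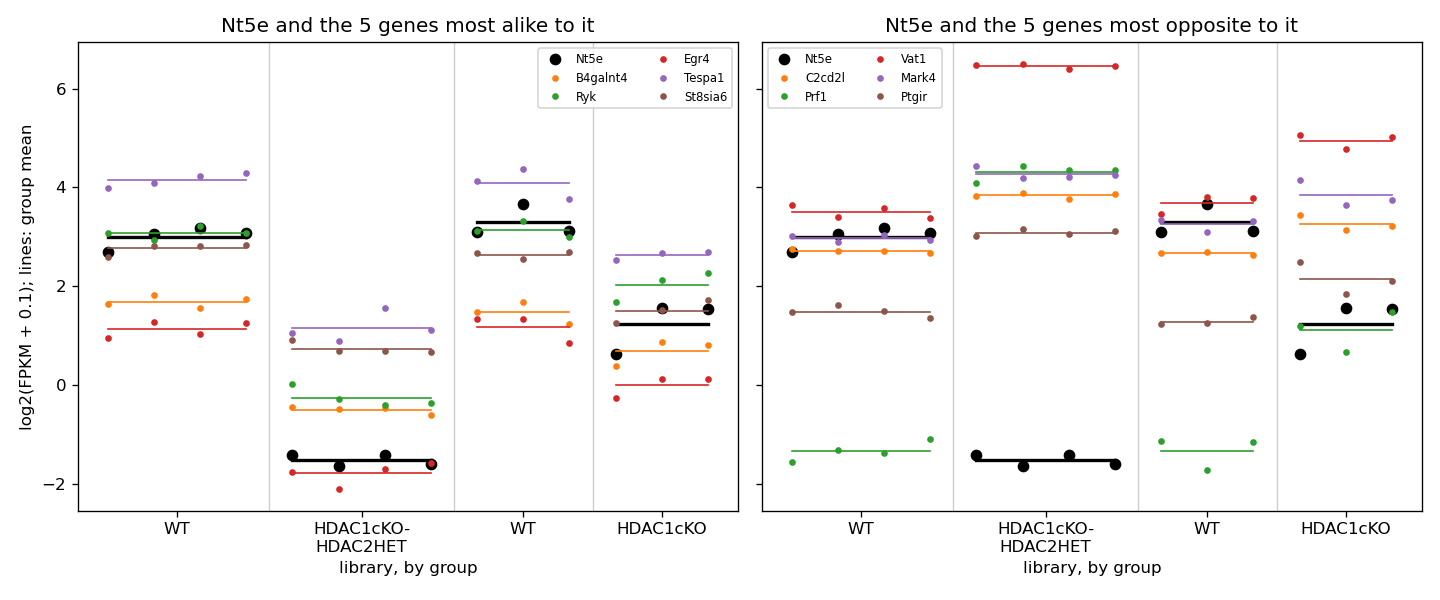
Log2(FPKM + 0.1) of *Nt5e* (black) and of the 5 genes most alike (left) and most opposite (right) to it, with a point for each library in replicate order and lines for group means. HDAC1cKO samples lie between WT and HDAC1cKO-HDAC2HET samples for the genes shown, as *Nt5e* does at 1.45 to 2.83 FPKM. The genes were picked by likeness to *Nt5e*, which favours this order, and the experiments differ in restimulation.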

How the data were processed

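The paper describes stranded poly(A) libraries in 50-base single reads, mapped to mm10 with TopHat, and FPKM computed with Cufflinks. For the HDAC1cKO experiment it refers to an earlier study, and whether these methods cover that experiment is not stated. FPKM values with their bounds were deposited for both experiments. The loci were not the same in both, and 43667 genes had a value in the first and 32447 in the second. Levels set side by side across the experiments carry this difference too. The submitters' processing notes also name STAR 2.5.2b, Subread 1.5.1 and edgeR without a role. FPKM already accounts for library depth and transcript length, and no count table was analysed.

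Genes were taken by name, or else from the assembled locus that shared at least 0.8 of the joint span with the GENCODE M21 gene or one of its transcripts. This gave 15105 and 13912 genes with a mean of at least 0.1 FPKM. A separate limma 3.58.1 model (R 4.3.3) was fitted to each experiment on log2(FPKM + 0.1), with a variance trend and Benjamini-Hochberg adjustment over all genes. A gene was called at an adjusted p of at most 0.05. Single genes other than *Nt5e* also had a 2-sided exact permutation test, whose smallest p is 0.0286 for 4 against 4 samples and 0.1 for 3 against 3. A contrast over the 4 group means of all 14 samples tested whether fold changes differed. The fits were also run on simulated data, and the outcome is not reported here. Alternatives changed the pseudocount, filter, scaling, variance model, matching and samples.

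The members and lists were chosen with earlier results of these data known. Named genes were the 9 members, the deleted genes, the 5 genes most like and most unlike *Nt5e*, and, of the wider list, at most 12 called genes per experiment with a fold change of at least 2, by size. Some genes were named beside these, among them marker genes and the other factors known to control *Nt5e* or *Entpd1*. *Adora2a* was not in the promoter table, and 8 of 9 members were. Of the list genes, 10 had no matched locus and were not analysed here.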

Additional observations from a re-analysis of the deposited data

Results flagged for a closer look

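*Adora2b* in HDAC1cKO-HDAC2HET replicate 1 stood at 1.53 FPKM, apart from 0.806 to 0.871 FPKM in the other 3 replicates, by Dixon's test at the 95% level. Chance flags about 1 in 20 groups, and 18 groups of 4 were tested. Its confidence bounds, 1.21 to 1.84 FPKM, do not reach the other values. Without it the log2 fold change was -1.88.

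The log2 fold changes of *Adora2a* and *Dpp4* differed between the experiments, as the test of the difference showed, by 0.69 for *Adora2a* and -0.69 for *Dpp4* (HDAC1cKO-HDAC2HET minus HDAC1cKO). *Adora2a* passed that test under all 26 alternatives, at adjusted p of 0.00146 to 0.0360 from limma, and *Dpp4* under 10 of 26.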

How the results depend on the processing

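Each value other than counts and those of *Nt5e* was compared with its value under each alternative run. Of these comparisons, 718 kept their direction and their side of the threshold, 16 lost and 7 gained a call and 15 changed sign. *Nt5e* in HDAC1cKO-HDAC2HET cells had a log2 fold change of -2.83 with 1 FPKM and -4.94 with 0.01 FPKM added. With genes listed by name in every sample alone, 1 of the 8 other members (5 otherwise) and 3 genes of the wider list (40 otherwise) were called in HDAC1cKO-HDAC2HET cells and 0 members differed between the experiments, since few could be tested. In 1 fit over all 14 samples, 1 member and 14 genes of the wider list were called in HDAC1cKO cells (0 otherwise), and over all genes 648 were higher and 728 lower, against 2 and 8. With sample quality weights these were 16 and 14, without WT replicate 3 24 and 31, without a variance trend 0 and 6, and with a replicate block 0 and 5. Of HDAC1cKO-HDAC2HET calls with a 2-fold change, 846 were higher and 839 lower, against 416 and 324 with 1 FPKM added, and calls at any size among named rows were 474 and 541 against 3657 and 4172.

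The count of members whose fold changes differed between the experiments, 2, was 1 without a filter, without a variance trend, with *Xist* as a covariate and with the replicate block, and 1 to 3 with a replicate left out. Replicate numbers did not pair samples, with correlations of -0.0198 to 0.0461 between same-numbered samples, and the block left the counts of members called in each experiment at 5 and 0.

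With *Xist* as a covariate, WT replicate 2 alone set the WT level of the second experiment. *Cd38* in HDAC1cKO cells was then at -0.23 (0.17 otherwise). The differences between experiments were at -0.21 for *Entpd1* (0.55 otherwise) and 0.11 for *Slc29a1* (-0.46 otherwise). None of these was called without the covariate. With a replicate left out, log2 fold changes in HDAC1cKO cells ran from -0.0026 to 0.19 for *Adora2a*, -0.028 to 0.37 for *Cd38* and -0.47 to 0.15 for *Slc29a1*, and the differences between experiments from -0.12 to 0.14 for *Adk* and -0.12 to 0.28 for *Cd38*. The cause was not tested. Cufflinks bounds cover counting and assignment error within a library only.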
